A study of Gallus gallus with 2 samples.

Results

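The integrin, laminin and nidogen genes were described across the cell classes of chicken visceral peritoneum. They were chosen by symbol alone: every row whose symbol starts with ITGA or ITGB, with LAMA, LAMB or LAMC and a digit, or with NID and a digit. The rule found 39 of 29558 rows, which were 12 integrin alpha subunits, 8 integrin beta subunits, 12 laminin chains, 2 nidogens, and 5 other rows whose symbols start with ITGB. These 5 rows (*ITGBL1*, *ITGB1BP1*, *ITGB1BP2*, *ITGB1BP3* and *ITGB3BP*) do not encode integrin beta subunits.

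Integrins are receptors of the cell surface, each built of an alpha and a beta subunit, that bind the extracellular matrix or other cells and connect them to the cytoskeleton. Laminins are secreted trimers of an alpha, a beta and a gamma chain, and they form the sheet-like core of basement membranes, on which endothelial, mesothelial, muscle and Schwann cells rest. Nidogens link the laminin sheet to the collagen IV network. Laminin chains differ between tissues, and the integrins with the subunits alpha 1, alpha 2, alpha 3, alpha 6 and alpha 7 are known in mammals as laminin or collagen receptors.

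Single-cell RNA sequencing had been run on peritoneum of Huiyang Bearded chickens aged 40 days, for which no treatment is described, with hyperpigmented visceral peritoneum (HVP) or with normal peritoneum. Each group is 1 library, made from tissue of 10 birds, so that differences between birds cannot be seen, no value has a replicate, and no test between the groups was possible. The library labelled HVP had 7157 barcodes and that labelled Normal 6981, of which those with more than 1000 genes were kept, 5866 (82.0%) and 5464 (78.3%). They held 34391591 and 24927669 UMIs (unique molecular identifiers, each counting 1 captured RNA molecule), with a median of 5345 and 3818 per cell, and 14 barcode sequences occurred in both libraries, 11 of them among kept cells.

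The files of each library carry the name of the other group. *DCT*, an enzyme of melanin synthesis that pigmented tissue should hold more of, was at 1.86 CPM (UMIs per 1000000 UMIs) in the kept cells labelled HVP and at 4.77 CPM in those labelled Normal. The ratio of 2.57 (95% interval 1.88 to 3.53) goes against the labels. In melanocyte-like cells, the pigment cell markers *PMEL* (532 and 3416 CPM) and *MLANA* (386 and 1002 CPM) were also higher in the library labelled Normal, while *SOX10* (258 and 174 CPM) was not. The libraries are called by their labels throughout, and any direction between them depends on which of the names is right. Statements that hold in both libraries do not depend on it.

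Cells of both libraries were clustered together without the 39 genes and without *DCT*, *TYR* and *TYRP1*, and 14 of 18 clusters could be named from lists of marker genes, none of which is a member. They formed 11 classes, and the melanocyte-like class carried 10 of 13 melanocyte markers. In the libraries labelled HVP and Normal, these held 2115 and 1528 fibroblast-like, 1102 and 1348 blood endothelial-like, 840 and 437 tenocyte-like, 607 and 489 pericyte-like, 350 and 630 smooth muscle-like, 104 and 129 myeloid-like, 70 and 156 T cell-like, 94 and 62 melanocyte-like, 70 and 75 mesothelial-like, 68 and 47 Schwann-like, and 34 and 19 lymphatic endothelial-like cells. Pericyte-like cells also carried 4 smooth muscle and 3 adipocyte markers, and smooth muscle-like cells 6 pericyte markers. The first 9 of these classes have at least 50 cells in each library, and Schwann-like and lymphatic endothelial-like cells fall below that. The classes were formed from the same cells, so differences between classes are descriptions and carry no p-value. RNA set free from other cells was not separated from the cells' own and adds to all values.

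Levels (CPM) are UMIs of a gene over all UMIs of the class, summed over its cells, and are given for the library labelled HVP first and then for that labelled Normal. Intervals are exact 95% Poisson intervals for levels and exact binomial ones for ratios, and cover counting error only. Levels are compared for 1 gene between classes and not between genes, because the capture of the 3′ end of each gene is not known.

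Of the 39 members, 29 had at least 50 UMIs in the kept cells of each library. In 20 of these 29, the class with the highest level among the 9 larger classes was the same in both libraries, where 58.3% of all 12588 genes with that depth had the same leading class. Pericyte-like cells led for 7 of the 20 (*ITGA1*, *ITGA7*, *LAMA4*, *LAMB1*, *LAMC1*, *NID1* and *NID2*), tenocyte-like cells for 4 (*ITGA2*, *ITGA11*, *ITGB5* and *ITGB8*), and T cell-like cells for 3 (*ITGA4*, *ITGB2* and *ITGB1BP3*). Melanocyte-like cells led for *LAMA3* and *ITGB1BP1*, smooth muscle-like cells for *LAMA5* and *ITGB3*, blood endothelial-like cells for *ITGA6*, and fibroblast-like cells for *LAMA2*. For 8 members (*ITGA4*, *ITGA6*, *ITGA7*, *ITGB2*, *ITGB8*, *LAMA2*, *LAMA3* and *LAMA5*), the level in that class was also at least 5-fold above that of all other kept cells in both libraries, against 15.1% of all genes. With the 2 smaller classes included, Schwann-like cells led for 8 members in both libraries, among them *LAMA4*, *LAMB1*, *NID2* and *ITGB1BP1*. Pericyte-like cells then led for only 3 (*ITGA1*, *ITGA7* and *NID1*), and melanocyte-like cells for *LAMA3* alone. The shares of all genes led by each single class are not given, so the counts per class have no background beside them.

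**Figure D1:**
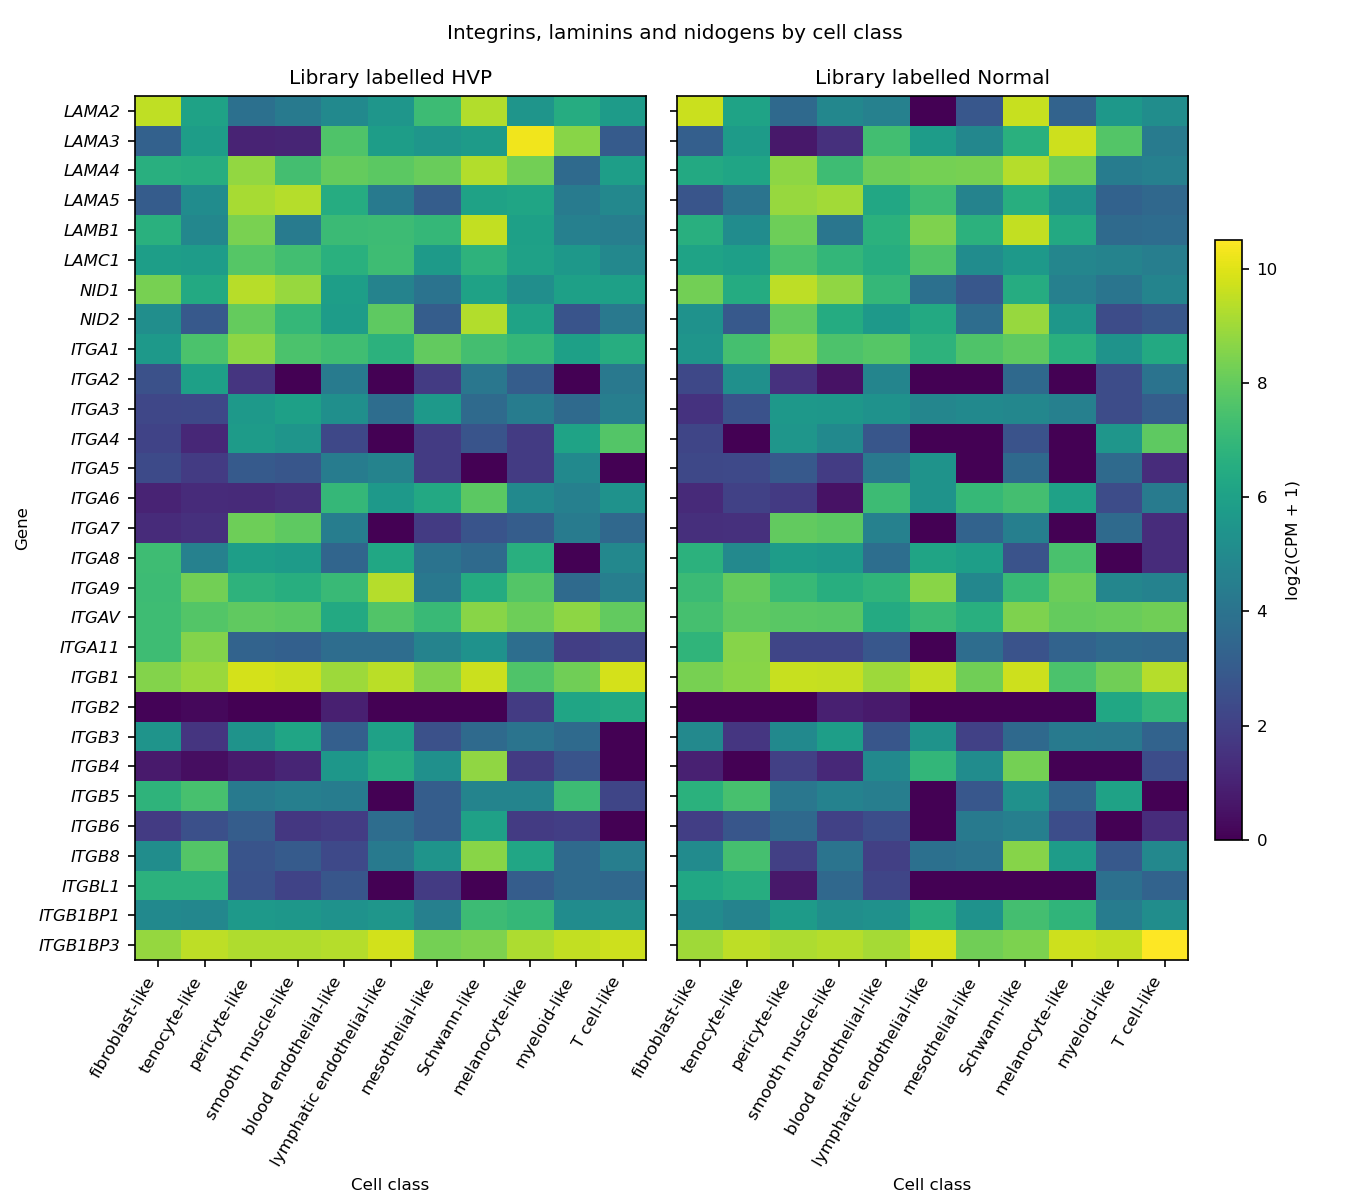
Levels of the 29 members with at least 50 UMIs in each library, as log2(CPM + 1), in 11 cell classes (columns) of the libraries labelled HVP and Normal. Pericyte-like, smooth muscle-like and Schwann-like cells hold many of the high laminin and nidogen values, *LAMA3* is highest in melanocyte-like cells, and T cell-like cells are low for all 8 laminin and nidogen genes shown.

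Of the 4 laminin alpha chains with at least 50 UMIs in each library, each was highest in a different class. *LAMA3*, the alpha chain of the laminins of epithelial basement membranes in mammals (chromosome 2, 102738404 to 102851911 in the RefSeq annotation of GRCg7b), was highest in melanocyte-like cells. Its level there was 1228 CPM (1120 to 1342) and 823 CPM (707 to 953), from 480 and 180 UMIs. This was 23.2 times (20.9 to 25.7) and 14.1 times (12.0 to 16.5) the level of all other kept cells. At least 1 UMI of *LAMA3* was found in 88 of 94 (93.6%) and 51 of 62 (82.3%) melanocyte-like cells, and no cell held more than 17 UMIs, so the level was spread over the class. After thinning every cell to 2000 UMIs, the shares were 80.6% of 93 cells and 70.5% of 61 cells. Pericyte-like cells had the lowest *LAMA3* level of the named classes in both libraries. Their shares were 0.167% of 599 cells and 0 of 474 cells (upper bound 0.775%). Taken from the lowest class, these shares do not measure the background of free RNA. The median depths before thinning were 3793 and 3391 UMIs in melanocyte-like and 4606 and 3191 in pericyte-like cells.

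*LAMA3* was next highest in myeloid-like cells, at 395 and 207 CPM, and in blood endothelial-like cells, at 192 and 157 CPM. Schwann-like cells held 54.1 and 99.5 CPM, tenocyte-like cells 56.8 and 52.7, lymphatic endothelial-like cells 56.9 and 54.9, and mesothelial-like cells 45.0 and 27.7. T cell-like, fibroblast-like, smooth muscle-like and pericyte-like cells lay between 1.04 and 8.54 CPM in the first library and between 0.605 and 19.7 CPM in the second. The order of the first 3 classes was thus the same in both libraries, and the intervals of melanocyte-like and myeloid-like cells did not overlap. Of the 8 defining myeloid markers, *C1QA* and *C1QB* were at 0 UMIs in the melanocyte-like cells of both libraries, and *CSF1R* had 2 and 1 UMIs. In all, 5 and 6 of the 8 were at 0 UMIs there. Summed, the 8 markers were at 125 and 119 CPM in melanocyte-like cells. They were at 3822 and 4557 CPM in myeloid-like cells and at 115 and 180 CPM in all kept cells. In the other direction, the 13 melanocyte markers summed to 1471 and 1458 CPM in myeloid-like cells. Their sums were 7925 and 12238 CPM in melanocyte-like cells and 349 and 362 CPM in all kept cells. Of these markers, *PMEL* had 0 and 3 UMIs in myeloid-like cells, *MLANA* 0 and 1, and *SOX10* 0 in both libraries. The sum there thus came mostly from other genes of the list. The part of melanocyte RNA in the myeloid-like level of *LAMA3* was not tested. In mammals *LAMA3* is known to join the beta chain *LAMB3*, which had no UMI in melanocyte-like cells, where a limit of 3 UMIs corresponds to 7.67 and 13.7 CPM. In all kept cells *LAMB3* had 5 and 8 UMIs.

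*LAMA2*, the alpha chain of the laminin of muscle and peripheral nerve in mammals, lost in a form of congenital muscular dystrophy, was highest in fibroblast-like cells (chromosome 3, 57779932 to 58116457). Its level was 722 CPM (708 to 737) and 809 CPM (788 to 830), which was 5.96 and 8.0 times that of other kept cells. Fibroblast-like cells held 79.1% and 76.7% of all its UMIs. Schwann-like cells followed closely with 632 and 785 CPM. The other classes were far lower, with 64.4 and 67.5 CPM in tenocyte-like, 53.9 and 34.8 in T cell-like, 90.2 and 47.2 in myeloid-like, 43.5 and 9.15 in melanocyte-like, and 44.2 and 0 in lymphatic endothelial-like cells. Blood endothelial-like cells held 30.3 and 23.6 CPM, smooth muscle-like cells 18.8 and 28.0, and pericyte-like cells 13.5 and 10.9. Mesothelial-like cells, at 145 and 6.15 CPM, were the class in which the libraries were farthest apart among those with at least 50 UMIs.

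*LAMA5*, the alpha chain of mature vascular and epithelial laminin, was highest in smooth muscle-like and pericyte-like cells (chromosome 20, 8173533 to 8253131). These are called the mural classes here, although their position on vessels was not tested. Smooth muscle-like cells held 649 CPM (612 to 687) and 532 CPM (502 to 563), 7.99 and 7.86 times other kept cells, and pericyte-like cells 559 and 465 CPM, 7.97 and 5.51 times. Blood endothelial-like cells were at 88.5 and 77.7 CPM, Schwann-like cells at 65.4 and 94.0, and melanocyte-like cells at 71.6 and 41.2. Tenocyte-like (33.0 and 15.2), T cell-like (28.7 and 10.6), myeloid-like (19.7 and 8.99), mesothelial-like (7.50 and 24.6) and fibroblast-like cells (7.34 and 5.78) were low. Lymphatic endothelial-like cells were at 19.0 and 151 CPM, from 3 and 11 UMIs. Both mural classes were thus the highest in each library.

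*LAMA4*, the alpha chain of early vascular laminin, was spread over more classes than the other alpha chains. Schwann-like cells were highest, at 629 CPM (549 to 717) and 652 CPM (540 to 781), followed by pericyte-like cells at 448 and 423 CPM. Melanocyte-like cells held 309 and 288 CPM, mesothelial-like cells 270 and 329, blood endothelial-like cells 257 and 284, and lymphatic endothelial-like cells 227 and 316. Smooth muscle-like cells were lower, at 161 and 152 CPM, as were fibroblast-like (97.3 and 83.2) and tenocyte-like cells (91.4 and 71.8). T cell-like cells held 57.5 and 22.7 CPM and myeloid-like cells 11.3 and 20.2. The pericyte-like level was 2.78 times the smooth muscle-like level in both libraries, whereas *LAMA5* was at about the same level in both mural classes. *LAMA1*, the alpha chain of embryonic laminin, had 46 and 27 UMIs in all kept cells.

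**Figure D2:**
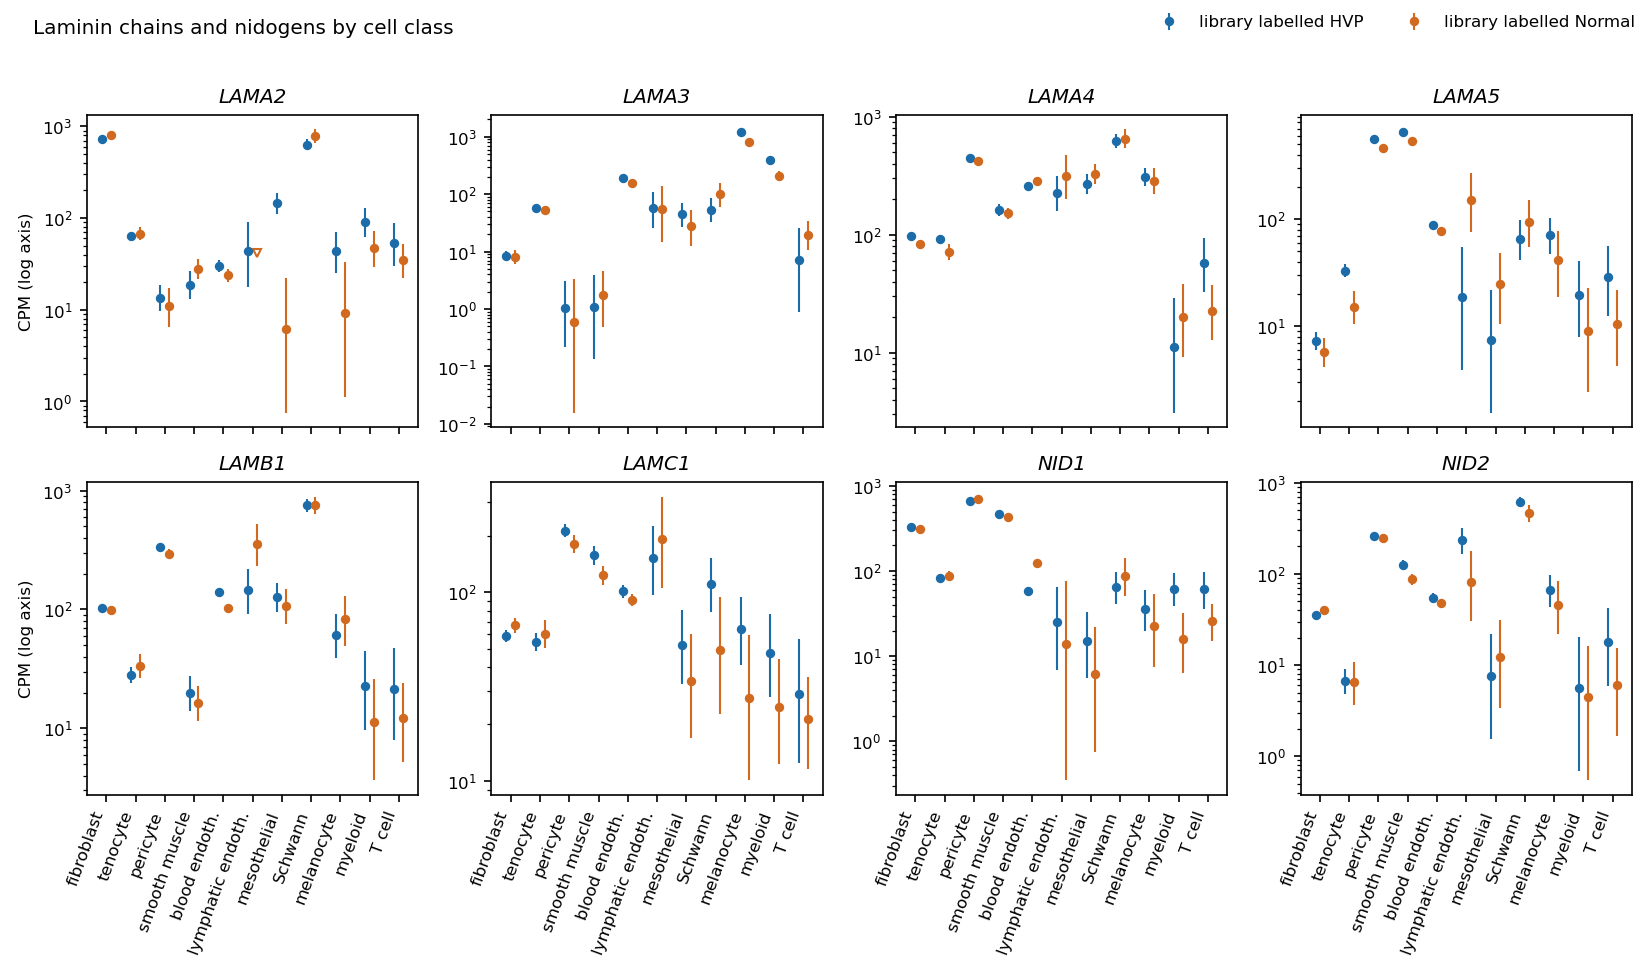
CPM (log axis) of 8 laminin and nidogen genes in 11 classes, with exact 95% Poisson intervals, for the libraries labelled HVP and Normal; open triangles mark classes with 0 UMIs, drawn at the level of 3 UMIs. *LAMA3* peaks in melanocyte-like cells (1228 and 823 CPM), *LAMA2* in fibroblast-like and Schwann-like cells, *LAMA5* in both mural classes, and *LAMB1* in Schwann-like and pericyte-like but not smooth muscle-like cells.

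*LAMB1*, the beta chain that pairs with most of these alpha chains, was highest in Schwann-like cells, at 751 CPM (663 to 847) and 752 CPM (631 to 889). It was found in 64 of 68 and 44 of 47 of these cells. Pericyte-like cells followed with 338 and 292 CPM, and smooth muscle-like cells had only 19.9 and 16.4 CPM. The ratio of pericyte-like to smooth muscle-like cells was 17.0 (12.2 to 24.4) and 17.8 (12.7 to 25.6), the widest separation of these neighbouring classes among the 19 members with enough UMIs. Lymphatic endothelial-like cells held 145 and 357 CPM, blood endothelial-like cells 140 and 103, mesothelial-like cells 128 and 108, fibroblast-like cells 102 and 98.5, and melanocyte-like cells 61.4 and 82.3. Tenocyte-like (28.2 and 33.5), myeloid-like (22.5 and 11.2) and T cell-like cells (21.6 and 12.1) were lowest with smooth muscle-like cells.

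*LAMC1*, the gamma chain shared by most laminins, varied least among the 6 laminin chains with at least 50 UMIs in each library. It was at 213 and 181 CPM in pericyte-like cells, 2.79 and 2.30 times other kept cells, and at 157 and 123 CPM in smooth muscle-like, 152 and 192 in lymphatic endothelial-like, and 102 and 91.3 in blood endothelial-like cells. Schwann-like (111 and 49.7), fibroblast-like (58.9 and 67.0), tenocyte-like (54.7 and 60.1), melanocyte-like (63.9 and 27.4), mesothelial-like (52.5 and 33.8), and myeloid-like cells (47.9 and 24.7) were lower. T cell-like cells were lowest, at 28.7 and 21.2 CPM. In smooth muscle-like cells *LAMA5* and *LAMC1* were thus above the level of other cells while *LAMB1* was below it. The other beta chain of vascular and muscle laminin, *LAMB2*, had only 42 and 17 UMIs in all kept cells, *LAMB4* 33 and 24, and *LAMC3* 27 and 35. *LAMB1* and *LAMB4* are neighbours on chromosome 1 (15067914 to 15108889 and 15111982 to 15165811).

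Both nidogens were high in pericyte-like cells and separated elsewhere. *NID1* was at 670 CPM (641 to 701) and 708 CPM (668 to 750) in pericyte-like, 468 and 430 in smooth muscle-like, and 327 and 310 in fibroblast-like cells. Tenocyte-like (83.1 and 87.5), blood endothelial-like (58.7 and 125), Schwann-like (65.4 and 88.4), T cell-like (61.1 and 25.7), and myeloid-like cells (62.0 and 15.7) were lower. Melanocyte-like (35.8 and 22.9), lymphatic endothelial-like (25.3 and 13.7) and mesothelial-like cells (15 and 6.15) were lowest. *NID2* was highest in Schwann-like cells, at 617 CPM (538 to 705) and 464 CPM (370 to 575), 9.51 and 7.89 times other kept cells, and followed in pericyte-like cells at 260 and 249 CPM.

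Smooth muscle-like cells held 125 and 87.0 CPM of *NID2*, lymphatic endothelial-like cells 234 and 82.3, melanocyte-like cells 66.5 and 45.7, blood endothelial-like cells 54.9 and 48.3, and fibroblast-like cells 35.1 and 39.7. T cell-like (18.0 and 6.05), mesothelial-like (7.50 and 12.3), tenocyte-like (6.66 and 6.53), and myeloid-like cells (5.64 and 4.49) held little. Schwann-like cells were thus high for *NID2* and low for *NID1*, fibroblast-like cells the reverse, and tenocyte-like cells low for both.

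The integrin alpha subunits known in mammals to bind laminin differed in their leading classes. *ITGA6*, the alpha subunit of the laminin receptors of endothelium and epithelium (chromosome 7, 17336775 to 17455782), was at 126 CPM (117 to 136) and 147 CPM (139 to 157) in blood endothelial-like cells. This was 15 times (12.9 to 17.4) and 15.9 times (13.5 to 18.8) the level of other kept cells, and the class held 74.8% and 86.2% of its UMIs. Schwann-like cells were higher still, at 233 CPM (186 to 290) and 166 CPM (112 to 237), although the interval of the library labelled Normal reached into that of blood endothelial-like cells. Mesothelial-like cells held 80.0 and 129 CPM, lymphatic endothelial-like cells 50.6 and 41.2, melanocyte-like cells 30.7 and 64.0, T cell-like cells 39.5 and 19.7, and myeloid-like cells 22.5 and 4.49. In fibroblast-like, pericyte-like, smooth muscle-like and tenocyte-like cells it lay between 1.05 and 1.66 CPM and between 0.444 and 3.05 CPM.

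*ITGA7*, the laminin receptor subunit of muscle, was highest in both mural classes. It was at 288 and 253 CPM in pericyte-like cells, 14 and 7.65 times other kept cells, and at 236 and 229 CPM in smooth muscle-like cells, 7.29 and 7.76 times. Blood endothelial-like cells held 20.9 and 23.8 CPM, myeloid-like cells 19.7 and 11.2, T cell-like cells 10.8 and 1.51, and Schwann-like cells 5.69 and 22.1. Fibroblast-like, tenocyte-like and mesothelial-like cells lay between 1.42 and 9.22 CPM, melanocyte-like cells had 3 and 0 UMIs, and lymphatic endothelial-like cells had none. *ITGA3*, a further laminin receptor subunit, was at 62.4 and 46.2 CPM in smooth muscle-like, 48.2 and 47.2 in pericyte-like, and 36.5 and 39.6 in blood endothelial-like cells, at least 2-fold above other kept cells in each. *ITGA1*, which binds collagen and laminin, was at 421 and 412 CPM in pericyte-like cells, 3.68 and 3.07 times other kept cells.

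The collagen-binding subunits *ITGA2* and *ITGA11* were highest in tenocyte-like cells. *ITGA11* was at 372 CPM (357 to 387) and 384 CPM (359 to 410.6) in these cells and at 149 and 116 CPM in fibroblast-like cells, and no other class exceeded 39.8 CPM. *ITGA2* was at 61.7 and 37.4 CPM in tenocyte-like cells and at 19.6 and 26.3 CPM in blood endothelial-like cells. It lies next to *ITGA1* on chromosome Z (16402170 to 16467103, after 16311682 to 16387996). *ITGA9*, a receptor subunit for tenascin and for factors of lymphatic growth, was at 310 and 260 CPM in tenocyte-like and 205 and 284 CPM in melanocyte-like cells and higher in the small class of lymphatic endothelial-like cells, at 651 and 398 CPM from 103 and 29 UMIs.

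*ITGA4*, the subunit by which leukocytes bind VCAM1 and fibronectin, was at 205 CPM (155 to 265) and 235 CPM (199 to 275) in T cell-like cells, 20.02 and 21.3 times other kept cells. It was next highest in myeloid-like cells (67.6 and 44.9 CPM), and in pericyte-like (53.1 and 44.2) and smooth muscle-like cells (43.6 and 31.1). All other classes were between 0 and 5.95 CPM. *ITGA5*, the classical fibronectin receptor subunit, was low throughout. It was at 20.5 and 17.7 CPM in blood endothelial-like cells, 4.17 and 4.16 times other kept cells, and at 31.0 and 11.2 CPM in myeloid-like and 25.3 and 41.2 CPM in lymphatic endothelial-like cells, from 3 to 11 UMIs in each library. *ITGA2B*, the platelet and thrombocyte subunit, had 27 and 21 UMIs in all kept cells. *ITGAV*, which pairs with several beta subunits, was found in every class, from 82.6 and 85.5 CPM in blood endothelial-like cells to 414 and 274 CPM in myeloid-like and 395 and 354 CPM in Schwann-like cells.

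Between these bounds *ITGAV* was at 286 and 261 CPM in melanocyte-like, 248 and 298 in T cell-like, 247 and 227 in pericyte-like, 233 and 218 in smooth muscle-like, and 203 and 239 in tenocyte-like cells. Lymphatic endothelial-like (202 and 137), fibroblast-like (150 and 169) and mesothelial-like cells (138 and 98.4) were lower.

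**Figure D3:**
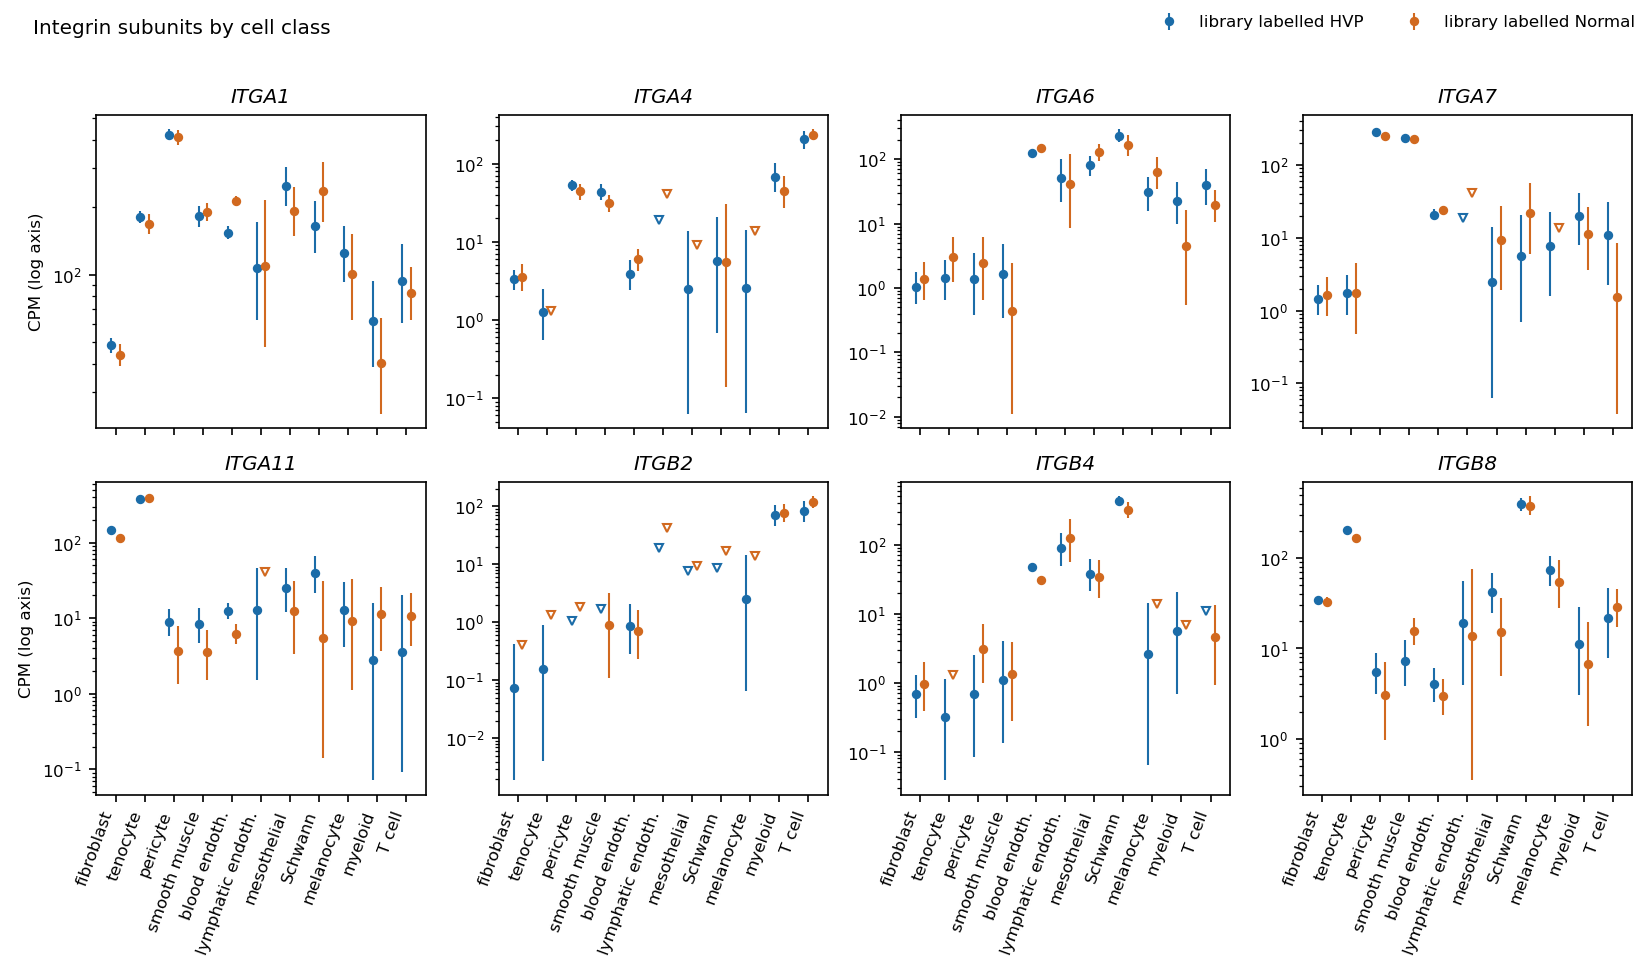
CPM (log axis) of *ITGA1*, *ITGA4*, *ITGA6*, *ITGA7*, *ITGA11*, *ITGB2*, *ITGB4* and *ITGB8* in 11 classes of both libraries, with exact 95% Poisson intervals and open triangles at the level of 3 UMIs for classes with 0 UMIs. *ITGA6* and *ITGB4* are highest in Schwann-like cells, *ITGA7* in both mural classes, *ITGA11* in tenocyte-like cells, and *ITGB2* in T cell-like and myeloid-like cells.

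*ITGB1*, the common beta subunit of most of these receptors, was found in every class and was lowest in melanocyte-like cells. It was at 194 CPM (153 to 243) and 183 CPM (131 to 249) there, 0.385 and 0.394 times other kept cells. T cell-like cells were highest in the library labelled HVP, at 916 CPM, but held 640 CPM in that labelled Normal. Schwann-like cells, at 802 and 840 CPM, were highest in the library labelled Normal. Pericyte-like cells held 895 and 795 CPM, smooth muscle-like cells 825 and 765, and lymphatic endothelial-like cells 676 and 768. Blood endothelial-like cells held 500 and 498 CPM, tenocyte-like cells 489 and 399, and fibroblast-like cells 379 and 323. Mesothelial-like (370 and 295) and myeloid-like cells (299 and 301) were the nearest above melanocyte-like cells.

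*ITGB2*, the beta subunit of leukocyte integrins, was at 82.6 CPM (52.4 to 124) and 118 CPM (93.3 to 147) in T cell-like cells and at 70.5 and 76.4 CPM in myeloid-like cells, whose intervals overlap. In all other classes it was at 2.56 CPM or less, and pericyte-like, mesothelial-like, Schwann-like and lymphatic endothelial-like cells had 0 UMIs, where a limit of 3 UMIs corresponds to 1.04 and 1.81 CPM in pericyte-like cells. *ITGB7*, another leukocyte beta subunit, had 16 and 29 UMIs in all kept cells. *ITGB4*, the partner of alpha 6 in hemidesmosomes and in Schwann cells, was at 427 CPM (361 to 501) and 315 CPM (239 to 408) in Schwann-like cells, 45.3 and 29.4 times other kept cells.

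*ITGB4* was found in 57 of 68 and 29 of 47 Schwann-like cells and thus was not carried by a few of them. Lymphatic endothelial-like cells followed at 88.5 and 123 CPM, blood endothelial-like cells at 46.6 and 30.6 CPM and mesothelial-like cells at 37.5 and 33.8 CPM, and the other 7 classes were between 0 and 5.64 CPM. *ITGB8*, which with alpha V activates latent TGF-beta, was at 203 CPM (192 to 215) and 167 CPM (151 to 185) in tenocyte-like cells, 7.52 and 8.62 times other kept cells. It was at 395 CPM (332 to 467) and 381 CPM (297 to 483) in Schwann-like cells, 7.08 and 12.5 times. Melanocyte-like cells held 74.2 and 54.9 CPM, mesothelial-like cells 42.5 and 15.4, and fibroblast-like cells 34.2 and 32.9. T cell-like (21.6 and 28.8), lymphatic endothelial-like (19.0 and 13.7), myeloid-like (11.3 and 6.74), smooth muscle-like (7.18 and 15.5), pericyte-like (5.55 and 3.03), and blood endothelial-like cells (4.03 and 2.97) were lower.

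*ITGB3*, a beta subunit that pairs with alpha V, was at 71.8 and 58.1 CPM in smooth muscle-like cells, 2.76 and 3.17 times other kept cells, and it was also found in lymphatic endothelial-like (63.2 and 41.2), fibroblast-like (42.4 and 29.7) and pericyte-like cells (40.9 and 30.9). *ITGB5*, another partner of alpha V, was at 172 and 175 CPM in tenocyte-like, 112 and 102 CPM in fibroblast-like, and 147 and 65.2 CPM in myeloid-like cells. *ITGB6*, known as an epithelial beta subunit, was low, and its highest level was 62.6 and 22.1 CPM in Schwann-like cells from 22 and 4 UMIs.

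Of the rows that are no integrin subunits, *ITGB1BP1*, which encodes an inhibitor of integrin activation, was at 128 and 114 CPM in melanocyte-like cells, 3.57 and 3.13 times other kept cells. Schwann-like cells held 145 and 166 CPM, and the other 9 classes lay between 20.2 and 96.0 CPM. *ITGBL1*, a secreted protein with integrin-like repeats, was at 107 and 75.4 CPM in fibroblast-like and 107 and 92.7 CPM in tenocyte-like cells, and no other class exceeded 13.5 CPM. *ITGB1BP3*, in human an older name of the kinase gene *NMRK2*, was found in all classes, between 318 and 878 CPM and between 295 and 1521 CPM. *ITGB1BP2* had 24 and 31 UMIs and *ITGB3BP* 40 and 35 in all kept cells.

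Counted by class, 11 of the 29 members were at least 2-fold higher in pericyte-like cells than in other kept cells in both libraries, where 6.33% of all genes were. They were *ITGA1*, *ITGA3*, *ITGA4*, *ITGA7*, *ITGB6*, *LAMA4*, *LAMA5*, *LAMB1*, *LAMC1*, *NID1* and *NID2*, so that 6 of the 8 laminin and nidogen members with enough UMIs were among them. In Schwann-like cells 9 members were higher (9.35% of all genes), in blood endothelial-like (12.6%), smooth muscle-like (6.66%) and tenocyte-like cells (4.27%) 5 each, and in fibroblast-like (4.48%), myeloid-like (11.1%) and lymphatic endothelial-like cells (8.76%) 3 each. In melanocyte-like (7.09%), mesothelial-like (7.79%) and T cell-like cells (10.9%) 2 each were higher, shares near those of all genes. The medians of all 29 log2 ratios were 0.47 and 0.47 in pericyte-like cells, beside -0.34 and -0.33 over all genes.

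In T cell-like cells 18 members were at least 2-fold lower in both libraries, among them all 8 laminin and nidogen members, where 27.7% of all genes were lower. The medians of all 29 log2 ratios in this class were -1.96 and -1.75, beside -0.34 and -0.26 over all genes. In myeloid-like cells 15 were lower (23.4% of all genes), in tenocyte-like (18.4%) and mesothelial-like cells (18.1%) 14 each, and in blood endothelial-like (17.7%) and fibroblast-like cells (18.7%) 12 each. In melanocyte-like (20.8%) and smooth muscle-like cells (23.5%) 11 each were lower, in pericyte-like (19.6%) and lymphatic endothelial-like cells (25.1%) 10 each, and in Schwann-like cells 7 (19.4%). Counting only members whose intervals leave out 1 in both libraries, the counts fell to 7 in melanocyte-like, 4 in lymphatic endothelial-like and 4 in Schwann-like cells, and in no other class by over 1.5 times.

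Clusters within a class differed for several members. The fibroblast-like class was made of cluster 0, led by *WNT2*, with 765 and 614 cells, cluster 3, led by *LCAT*, with 737 and 539 cells, and cluster 6, led by *FSHR* and *NELL1*, with 613 and 375 cells. *LAMA2* was at 955 and 1134 CPM in cluster 0 and 1113 and 1058 CPM in cluster 3, but at 73.8 and 68.1 CPM in cluster 6, 0.0710 and 0.0620 times the level of the other clusters. *NID1* had the same pattern, at 384 and 420, 547 and 416, and 31.4 and 32.3 CPM, 0.0667 and 0.0773 times. Fibroblast-like cells were thus either high or low for both genes, by cluster.

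*ITGA8*, the receptor subunit for nephronectin, had the opposite pattern, at 437 and 345 CPM in cluster 6 and between 3.13 and 28.8 CPM in clusters 0 and 3, a ratio of 45.6 (36.7 to 57.2) and 22.5 (17.9 to 28.8). Over the whole fibroblast-like class it was at 150 and 108 CPM, 4.09 and 3.24 times other kept cells. That value depends on which clusters take the fibroblast-like name: in the library labelled HVP it was 0.174 with cells under 5% mitochondrial UMIs, 0.0228 with each library clustered alone, and 0.264 at a resolution of 1.0. For the library labelled Normal this ratio was not recomputed. With each library clustered alone, fibroblast-like cells held 9 and 773 UMIs of *ITGA8*, where they held 2005 and 784 at first. *ITGB3* was also higher in cluster 6, at 84.7 and 60.3 CPM, 3.91 and 3.39 times. In all, 2 of 19 members with enough UMIs were at least 2-fold higher in cluster 6 in both libraries (6.15% of all genes) and 4 were lower (7.89%), namely *LAMA2*, *NID1*, *LAMA4* and *ITGBL1*.

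The blood endothelial-like class had cluster 1, led by *SEMA3G*, with 429 and 857 cells, and cluster 4 with 673 and 491 cells. In cluster 1, 3 of 22 members were at least 2-fold higher than in cluster 4 in both libraries (5.39% of all genes). *ITGA1* was at 266 and 287 CPM against 60.6 and 43.9 CPM, *NID1* at 107 and 169 against 18.0 and 22.2, and *ITGA7* was 5.91 and 6.12 times as high. Lower were 2 members (3.08% of all genes), *ITGB4*, at 11.2 and 7.08 CPM against 76.4 and 85.4, and *LAMA2*, at 8.85 and 8.30 against 48.3 and 59.4. The *LAMA2* values rest on few cells. Over the whole class it was found in 50 of 1102 and 54 of 1348 cells, and 3 cells held 31.8% and 41.3% of its UMIs. *ITGA6*, the member led by this class, was less than 2-fold apart between the clusters, at 153 and 172 CPM in cluster 1 and at 104 and 89.6 CPM in cluster 4.

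Pericyte-like and smooth muscle-like cells differed by at least 2-fold in both libraries in 4 of 19 members, all higher in pericyte-like cells (6.47% of all genes). These were *LAMB1*, *LAMA4*, *NID2*, at 2.08 and 2.86 times, and *ITGA1*, at 2.31 and 2.15 times. No member was lower (5.27% of all genes).

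**Figure D4:**
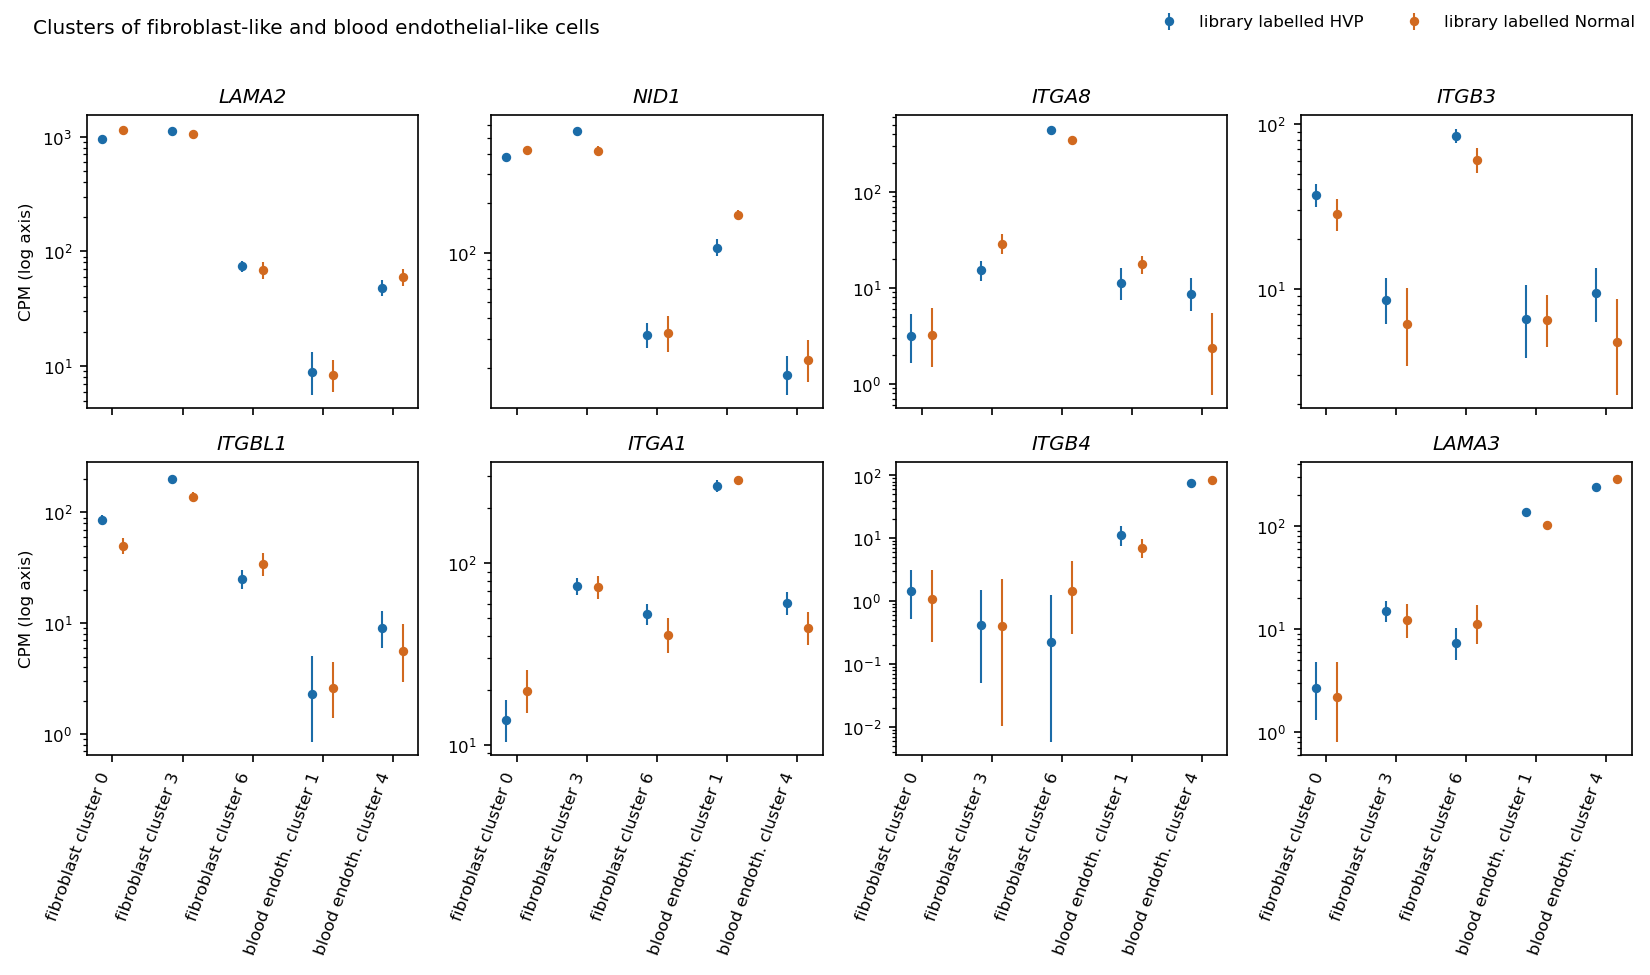
CPM (log axis) of *LAMA2*, *NID1*, *ITGA8*, *ITGB3*, *ITGBL1*, *ITGA1*, *ITGB4* and *LAMA3* in fibroblast-like clusters 0, 3 and 6 and blood endothelial-like clusters 1 and 4 of both libraries, with exact 95% Poisson intervals. *LAMA2* and *NID1* are low and *ITGA8* is high in fibroblast-like cluster 6, and *ITGA1* and *NID1* are higher and *ITGB4* is lower in endothelial-like cluster 1 than in cluster 4.

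The libraries were compared within classes, as the ratio of the library labelled Normal to the library labelled HVP. In melanocyte-like cells, 9 members had at least 50 UMIs over both libraries, and 0 of the 9 were past 2-fold either way, where 6.13% of 2170 genes were. *LAMA3* was lower in the library labelled Normal, with a ratio of 0.671 (0.562 to 0.798). *ITGA8* was higher, at 97.2 and 178 CPM, with a ratio of 1.84 (1.14 to 2.95) from 38 and 39 UMIs, and was past 2-fold at 2.01 with cells thinned to 2000 UMIs and at 2.05 with cells classed 1 by 1 from markers. *ITGB1BP3* was at 583 and 832 CPM, a ratio of 1.43 (1.17 to 1.74). For the other 6, *ITGA1*, *ITGA9*, *ITGAV*, *ITGB1*, *ITGB1BP1* and *LAMA4*, the ratio lay between 0.803 and 1.39, with intervals that hold 1.

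Over the 9 larger classes, 5 of 139 pairs of a member and a class were past 2-fold, near the 3.28% of all pairs of a gene and a class, and all 5 intervals leave out 1. They were 2 of 26 members in blood endothelial-like (3.2% of all genes), 1 of 20 in tenocyte-like (2.17%), 1 of 8 in mesothelial-like (4.78%), and 1 of 7 in myeloid-like cells (6.47%). No member was past 2-fold among 25 in fibroblast-like (2.12%), 19 in pericyte-like (2.18%), 19 in smooth muscle-like (1.93%) and 6 in T cell-like cells (10.1%), nor among 13 in Schwann-like (3.93%) and 4 in lymphatic endothelial-like cells (6.37%). *NID1* in blood endothelial-like cells was at 58.7 and 125 CPM from 335 and 881 UMIs, a ratio of 2.12 (1.87 to 2.42). Cluster 1, which holds more *NID1*, made up 429 of 1102 cells of this class in the first library and 857 of 1348 in the second. Within cluster 1 the ratio was 1.57 (1.37 to 1.81) and within cluster 4 it was 1.23 (0.816 to 1.84). *ITGA11* in blood endothelial-like cells was at 12.6 and 6.23 CPM from 72 and 44 UMIs, a ratio of 0.494 (0.331 to 0.728). Within cluster 4 the ratio was 0.418 (0.224 to 0.740), and within cluster 1, with 16 and 28 UMIs, it was 0.920 (0.481 to 1.82).

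*LAMA2* in mesothelial-like cells had 58 UMIs in the library labelled HVP and 2 in that labelled Normal, a ratio of 0.0424 (0.00501 to 0.160). Of the 58 UMIs, 32 were in 1 cell and the 3 cells with the most held 77.6%, so this value rests on few cells. *LAMA5* in tenocyte-like cells was at 33.0 and 15.2 CPM from 208 and 35 UMIs, a ratio of 0.462 (0.313 to 0.663), at a level far under that of the mural classes in either library. *ITGB5* in myeloid-like cells was at 147 and 65.2 CPM from 52 and 29 UMIs, a ratio of 0.445 (0.272 to 0.713). With called doublets left out, the ratio in blood endothelial-like cells was 2.06 for *NID1* and 0.374 for *ITGA11*. It was 0.0450 for *LAMA2* in mesothelial-like, 0.390 for *LAMA5* in tenocyte-like and 0.446 for *ITGB5* in myeloid-like cells. *LAMA2* in blood endothelial-like cells was then also past 2-fold, at 0.314 from 161 and 60 UMIs, where it had 173 and 167 UMIs before. Called doublets were 5 kept cells labelled HVP and 130 labelled Normal, so the removal fell mostly on 1 library. The part of free RNA, of doublets that were not called or of cell state in these differences was not tested. The median ratio of all genes lay between -0.05 and 0.06 on the log2 scale in every class.

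**Figure D5:**
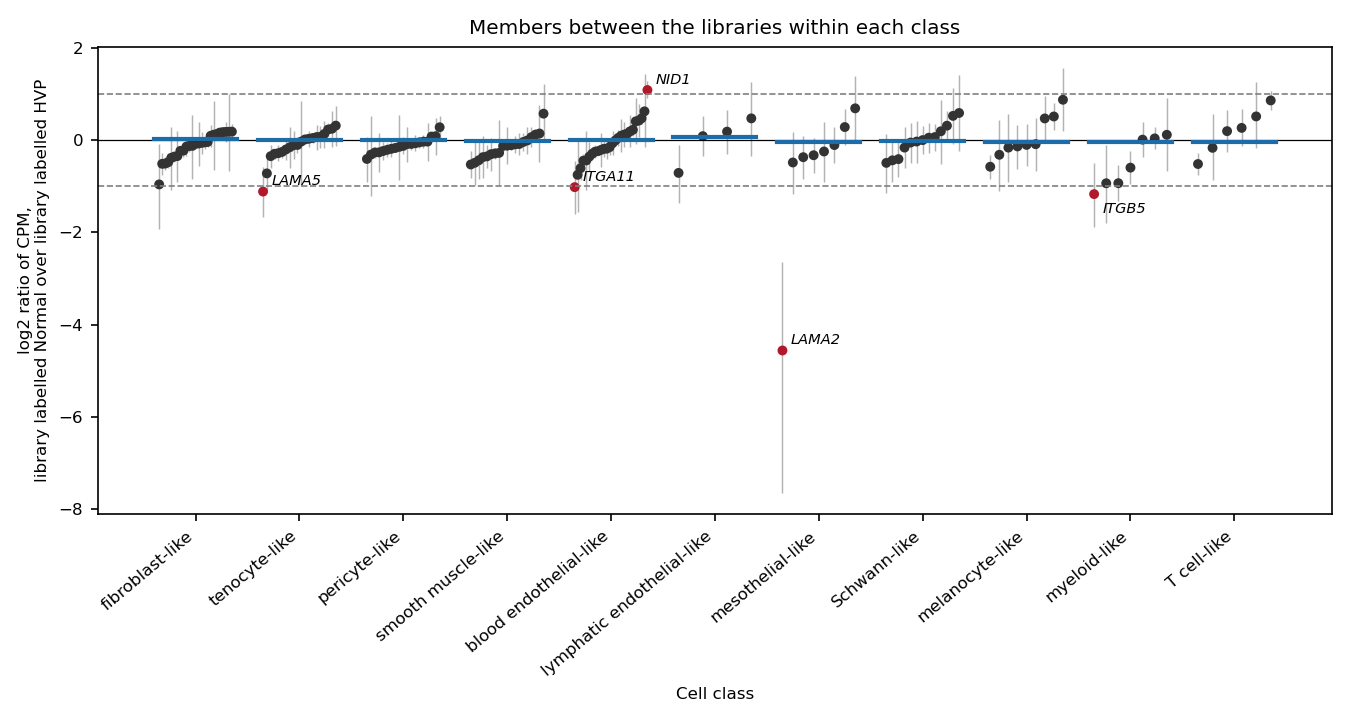
Log2 ratio of CPM in the library labelled Normal to the library labelled HVP for each member with at least 50 UMIs in a class, by class, with exact 95% intervals as grey lines; blue bars are medians of all genes with that depth, dashed lines mark 2-fold either way, and red points lie past them. Only 5 members in the 9 larger classes are past 2-fold, and the melanocyte-like members all lie within it.

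Genes that work with the members were taken from lists of 4 kinds. Shares of all genes called in the same class are given in brackets. Of 15 partners of laminins in basement membranes (collagen IV chains, perlecan, agrin, netrin 4 and others), 7 were at least 2-fold higher in smooth muscle-like cells in both libraries (6.66%). In pericyte-like cells 5 were higher (6.33%), and in Schwann-like (9.35%) and fibroblast-like cells (4.48%) 4 each. Others of the 15 were at least 2-fold lower in the same classes. These were 5 in smooth muscle-like (23.5%), 5 in pericyte-like (19.6%), 3 in Schwann-like (19.4%) and 9 in fibroblast-like cells (18.7%). In T cell-like cells 14 were lower (27.7%) and in myeloid-like cells 15 (23.4%). *COL4A5*, a collagen IV chain, was at 398 and 320 CPM in smooth muscle-like cells, and *NTN4*, which binds laminin gamma chains, at 350 and 454 CPM there. *EGFLAM*, a dystroglycan-binding protein, was at 148 and 181 CPM in pericyte-like cells. In blood endothelial-like cells 1 was higher (12.6%) and in tenocyte-like cells 0 (4.27%), although 5 members were higher in each of these classes.

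Of 21 cytoplasmic adaptors of integrins, 6 each were higher in blood endothelial-like (12.6%), smooth muscle-like (6.66%) and myeloid-like cells (11.1%). In these classes 4 (17.7%), 3 (23.5%) and 5 (23.4%) were lower. *FERMT3*, the kindlin of blood cells, was at 64.7 and 81.7 CPM in T cell-like cells, 17.2 and 10.6 times other kept cells. *FERMT1*, the kindlin of epithelia in mammals, was at 76.1 and 31.5 CPM and *PARVB*, a parvin, at 155 and 112 CPM in myeloid-like cells. Of 12 integrin ligands other than laminins, 4 (*FN1*, *TNC*, *FBN1* and *POSTN*) were higher in fibroblast-like cells (4.48%) and 5 were lower there (18.7%). *VTN* (vitronectin) was at 408 and 753 CPM in mesothelial-like cells, *VWF*, which is also one of the endothelial markers, at 2973 and 2676 CPM in blood endothelial-like cells, and *SPP1* (osteopontin) at 147 and 112 CPM in myeloid-like cells.

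Of 17 other matrix receptors and their partners, 7 each were higher in Schwann-like (9.35%) and smooth muscle-like cells (6.66%) and 4 in pericyte-like cells (6.33%). Lower in these classes were 3 (19.4%), 4 (23.5%) and 2 (19.6%). *CD9*, a tetraspanin that binds integrins, was at 1425 and 1111 CPM in Schwann-like cells, *CD36*, a receptor for thrombospondin, at 368 and 689 CPM in blood endothelial-like cells, and *SDC4*, a syndecan, at 2756 and 2579 CPM in smooth muscle-like cells.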

How the data were processed

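The deposited files hold UMI counts per gene and barcode, which the authors made with Cell Ranger 7.1.0 on GRCg7b with mitochondrial genes added by hand, without normalization. The libraries used 3′ chemistry on tissue dissociated with collagenase.

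The gene limit for cells was 1000, and depth was 36100448 and 26865572 UMIs over all barcodes of the libraries labelled HVP and Normal. Cells were clustered in Seurat 5.3.0 (R 4.3.3) with 2000 variable genes, 20 principal components and a resolution of 0.5. A cluster was named from at least 3 markers, each at least 2-fold higher and in at least 10% of its cells, out of 132 markers for 21 cell types. Scrublet (scanpy 1.11.5) called 5 barcodes (0.0699%) and 155 (2.22%) as doublets, of which the first share is too low for a working call. They were kept in the main results. Intervals were computed with scipy 1.17.1, and scripts were checked on simulated data. For 37 of 39 members the symbol matched the RefSeq gene table.

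All members are accounted for except 1, which is not reported here. Values by class are given for members at least 5-fold above other cells in the same leading class of both libraries and for the main laminin chains, nidogens, *ITGB1* and *ITGAV*, and lists are represented by the 3 genes with the highest ratios. Further members are described in a few classes chosen after their values were seen. The members and lists were chosen with earlier results of these data known. Alternatives were other cell filters, leaving out called doublets, other clusterings, class definitions, scalings (edgeR 4.0.16 TMM among them), thinning to 2000 UMIs and depth limits. Class counts, cluster contrasts and list counts were not recomputed under them, except for blood endothelial-like and melanocyte-like cells.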

Additional observations from a re-analysis of the deposited data

Results flagged for a closer look

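*ITGB1BP3* in blood endothelial-like cells was on opposite sides of other kept cells in the 2 libraries, at 1.17 times their level in the library labelled HVP and 0.858 times in the library labelled Normal. The difference was not tested. Cluster 1 was below other cells in both libraries (0.731 and 0.547 times) and cluster 4 above them in both (1.54 and 1.67 times), and the clusters' shares of the class differed between the libraries.

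Barcodes with 1000 genes or fewer, which enter none of the comparisons, held higher levels of several members than kept cells. In the library labelled HVP the ratio was 14.9 for *ITGA2B*, 9.24 for *ITGB2*, 4.84 for *ITGA5*, 3.68 for *LAMA3* and 2.65 for *ITGB4*. In the library labelled Normal it was 4.90 for *ITGB2*, 3.05 for *ITGA4*, 2.56 for *ITGA5*, 2.34 for *LAMA3* and 2.08 for *ITGB4*. The *ITGA2B* ratio of 14.9 (7.93 to 27.6) rests on 20 UMIs in these barcodes and 27 in kept cells. In the library labelled Normal the *ITGA2B* ratio was 1.84 (0.351 to 6.15), from 3 and 21 UMIs. Several sums of markers were also higher: the 8 myeloid markers were at 562 CPM in these barcodes and 115 in kept cells of the library labelled HVP, and at 625 and 180 in the library labelled Normal. The 8 T cell markers were at 243 and 72.8, and at 377 and 144 CPM. The 6 thrombocyte markers were at 57.3 and 22.1, and at 40.8 and 27.2 CPM, and the 8 blood endothelial markers at 3423 and 1563, and at 3073 and 2608 CPM. The 13 melanocyte markers were at 547 and 349, and at 546 and 362 CPM. Only 7 and 9 of these 13 were higher in these barcodes, where all 8 myeloid markers were in both libraries. Myeloid-like cells also held 1471 and 1458 CPM of the melanocyte list. Sums of Schwann and fibroblast markers were lower in these barcodes in both libraries. The part of these cell types in the ratios was not tested.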

How the results depend on the processing

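No paired analysis was possible because each group is 1 library with no replicates, which also leaves no replicate to omit. Of 553 member ratios (a leading class against other kept cells, 1 library) under 11 alternatives, 416 stayed within their first interval, 134 moved outside it in the same direction, and 3 changed direction. Those 3 are *ITGA8* in fibroblast-like cells of the library labelled HVP, 4.09 at first and 0.174 under the mitochondrial filter (cells below 5% mitochondrial UMIs that hold 300 to 4000 genes), 0.0228 with each library clustered alone, and 0.264 at a resolution of 1.0. In the library labelled Normal, melanocyte-like cells led for *ITGA8*, so its ratio in fibroblast-like cells there is not among the 553. The 553 leave out ratios whose leading class was not found under a setting. Of 58 ratios at first, 21 could be recomputed under the mitochondrial filter and 41 with more than 500 genes. At a resolution of 0.2 there were 41, and with each library clustered alone 44. The settings differed in how much they moved. Under TMM scaling 32 of 58 ratios moved, with cells classed from markers 33 of 58, and under the mitochondrial filter 14 of 21. With called doublets left out 57 of 58 stayed, and with totals without ribosomal protein and mitochondrial genes all 58 did. The number of members with the same leading class stayed between 19 and 24, and the ratio of *LAMA3* in melanocyte-like cells between 18.8 and 50.1 and between 11.6 and 34.0 (libraries labelled HVP and Normal). TMM scaling moved the median log2 ratio of all genes by -0.38 to 0.33 in the 9 larger classes, and by -0.46 and -0.60 in lymphatic endothelial-like cells.

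The count of pairs past 2-fold between the libraries, 5 at first, was 9 with more than 500 genes, 1 with the mitochondrial filter, 12 at a resolution of 0.2, 8 with cells classed 1 by 1 from markers, 8 after thinning to 2000 UMIs, 18 with at least 20 UMIs, and 2 with at least 200. In melanocyte-like cells, 0 at first, it was 1 with cells classed from markers and 1 after thinning (*ITGA8* in both), and 2 with at least 20 UMIs (*ITGA6*, 2.09, and *LAMC1*, 0.429, whose intervals both hold 1). The pairs counted differ between these settings. With each library clustered alone, *ITGA8* in fibroblast-like cells had a ratio of 50.7 (26.6 to 111) from 9 and 773 UMIs. In the same class and setting, *ITGB8* (3.94), *ITGA1* (2.93) and *LAMA3* (2.23) were also past 2-fold. At first, 9 classes had at least 50 cells in each library. There were 10 with more than 500 genes, a skeletal muscle-like class among them, and 4 with the mitochondrial filter. A resolution of 0.2 gave 8, and cells classed from markers 7. Shares of all genes were not computed under the alternatives, so these counts have no background beside them. The requirement that the interval leave out 1, and the 2 smaller classes, were added after the data had been seen. Pericyte-like cells could not be named with more than 500 genes, the mitochondrial filter, each library alone or a resolution of 0.2. Other classes were also not named or fell below 50 cells in a library. With the mitochondrial filter these were T cell-like, mesothelial-like, myeloid-like and tenocyte-like cells. With each library alone they were T cell-like, myeloid-like and smooth muscle-like cells, and with cells classed from markers T cell-like and mesothelial-like cells. The classes below 50 cells and members below 50 UMIs are limited by depth.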

Other observations

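The 4 clusters without a name also held members at high levels. Cluster 11, led by muscle genes such as *TNNI2*, *MYL1* and *MYF5*, had 77 and 86 cells in the libraries labelled HVP and Normal. It held 18 of 24 and 26 of 31 UMIs of *ITGB1BP2*, known in mammals as the muscle protein melusin, at 39.5 and 51.0 CPM, 224 and 249 times other kept cells. In the same cluster *ITGA8* was at 270 and 171 CPM and *LAMB1* at 338 and 224 CPM.

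Cluster 15, led among others by *CLDN1* and *FGF16*, had 55 and 41 cells, with *ITGA9* at 615 and 712 CPM and *NID2* at 321 and 237 CPM. Cluster 8, led by *CYP1C1* and *FREM2*, had 244 and 357 cells, with *LAMA2* at 760 and 618 CPM and *LAMB1* at 253 and 226 CPM, in each case over 2-fold above other kept cells. Cluster 16, led by haemoglobin genes and genes of dividing cells, had 36 and 60 cells and held 11 and 7 UMIs of *ITGB3BP*, a centromere protein gene, at 31.2 and 13.6 CPM. No class is claimed for these clusters, and their part in the class ratios, in which they count as other cells, was not tested.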
